A study of Cardamine hirsuta with 6 samples.

Results

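*CYP83A1* (CARHR219650), *FMO GS-OX1* (CARHR057740) and *SEL1* (CARHR071460) are the *Cardamine hirsuta* matches of *Arabidopsis thaliana* genes of glucosinolate synthesis and sulfate uptake. Each had 1 peak of ChCUC1 binding among the 1997 reproducible peaks with an annotation row. The other 435 of the 2432 reproducible peaks had no gene assigned here, so any further peak of these genes among them was not counted. The 3 genes were chosen with their peaks, and the calls of these peaks in single libraries, already known. Each also has a row in the study's tables of transcripts that responded to ChCUC1 induction, and *CYP83A1* has one in its list of genes found by ChIP-seq as well as by DAP-seq. The values in those tables were not used here. The binding values below therefore describe the 3 genes, and no test was run on them.

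Glucosinolates are the sulfur-rich defense compounds of crucifers. They are built from amino acids, stored apart from the myrosinases that break them down, and released as toxic products when tissue is damaged. Their sulfur comes from sulfate, which transporters bring into the cell. A reductive pathway turns it into cysteine and glutathione, and a side branch supplies the activated sulfate that is added to the core structure. In *A. thaliana*, SEL1, also called SULTR1;2, is a high-affinity transporter that takes up sulfate in roots. CYP83A1 is a cytochrome P450 that oxidizes the aldoximes of methionine-derived, aliphatic glucosinolates. FMO GS-OX1 is a flavin monooxygenase that adds oxygen to the sulfur of their side chain. The 3 genes thus stand at sulfate entry, at the core structure and at a late step of side chain change. CUC1 is a NAC transcription factor known for its part in organ boundaries and leaf shape.

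In DNA affinity purification sequencing (DAP-seq), a tagged transcription factor is mixed with sheared genomic DNA free of chromatin proteins, and the bound fragments are sequenced. There were 3 ChCUC1 samples, in which ChCUC1 carried a HaloTag, and 3 Halo control samples, all with genomic DNA of the *C. hirsuta* genotype Oxford. The protocol names rosette leaves of plants aged 4 weeks as the DNA source, and the tissue label reads seedlings. Since binding took place in vitro, the peaks show where ChCUC1 can bind this DNA and not whether it does so in a given cell. Of the 4 peak lists used, the reproducible list was selected by the authors by the irreproducible discovery rate, which keeps peaks that rank alike between libraries. The values in the reproducible list were taken as pooled over ChCUC1 libraries and are not independent of the single-library values. The other lists were each called on 1 ChCUC1 library against the pooled Halo control. The whole-library list (4778 peaks) used all reads of its library, and the longer (3753 peaks) and the shorter (3253 peaks) pseudoreplicate list used, by their names, a random part of the reads of theirs. The lists hold no read counts, so the depth of each library is unknown. They carry no replicate numbers, and the SD over them is a spread between lists that differ in the reads used.

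*FMO GS-OX1* had one of the highest peaks of all. Its reproducible peak lay on chromosome 2 from 10980084 to 10980598, in the distal promoter of the gene, with the summit at 10980344. The fold enrichment, the ratio of ChCUC1 signal to Halo control signal at the summit, was 8.93 in the reproducible list. The whole-library list gave 8.79, the longer pseudoreplicate list 7.06 and the shorter one 9.54, with a mean of 8.46 ± 1.28 (SD, n = 3 lists). The shorter pseudoreplicate list thus stood highest and the longer one lowest. The −log10 p of the peak was 358 in the reproducible list, and 127, 63.1 and 45.5 in the whole-library, longer and shorter pseudoreplicate lists. By fold enrichment the peak ranked 6 of all reproducible peaks and 7, 29 and 3 in the whole-library, longer and shorter pseudoreplicate lists. It was the first of the 222 reproducible peaks on chromosome 2 and the first of the 215 in the category of distal promoters, whose median fold enrichment was 3.13.

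*SEL1* had a peak of nearly the same height. The peak lay on chromosome 2 from 19014645 to 19015175, with the summit at 19014918, in an intron of transcript CARHR071460.3. Its fold enrichment was 8.85 in the reproducible list. The whole-library list gave 9.06, the longer pseudoreplicate list 7.23 and the shorter one 7.02 (mean 7.77 ± 1.12, SD, n = 3 lists). Here the whole-library list stood highest, and both pseudoreplicate lists were lower and close to each other. The −log10 p was 366 in the reproducible list, and 140, 69.2 and 31.0 in the whole-library, longer and shorter pseudoreplicate lists. The peak ranked 7 of all reproducible peaks by fold enrichment, next to that of *FMO GS-OX1*, and 3, 26 and 39 in the single-library lists in the same order. Among the 243 reproducible peaks annotated to introns, with a median of 3.50, it ranked 2.

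The peak at *CYP83A1* was much lower. It lay on chromosome 7 from 11182470 to 11182953, with the summit at 11182708, and was annotated to an intron of transcript CARHR219650.2. The fold enrichment was 3.85 in the reproducible list. The whole-library list gave 3.89, the longer pseudoreplicate list 4.04 and the shorter one 3.07 (mean 3.67 ± 0.52, SD, n = 3 lists). The first 3 of these values were close together, and the shorter pseudoreplicate list was lower. The −log10 p was 77.7 in the reproducible list, and 29.8, 23.9 and 6.43 in the whole-library, longer and shorter pseudoreplicate lists. The last of these was the lowest of the single-library values at any of the 3 genes. It ranked 632 of all reproducible peaks and 89 among those in introns.

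**Figure D1:**
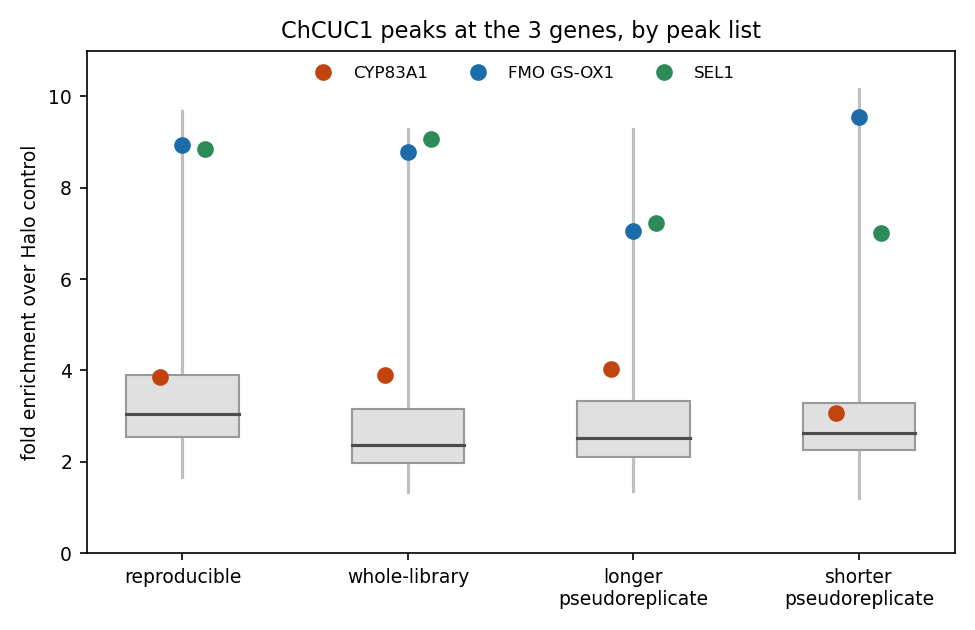
Fold enrichment over the Halo control (y axis) of the peaks at *CYP83A1*, *FMO GS-OX1* and *SEL1* (points) in each of the 4 peak lists (x axis). Boxes span the lower to the upper quartile of all peaks of a list with the median as a line, and grey lines run from the lowest to the highest peak. *FMO GS-OX1* and *SEL1* sit between 7.02 and 9.54 in all lists, and *CYP83A1* between 3.07 and 4.04, within the box of the reproducible and the shorter pseudoreplicate list and above it in the other lists.

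In each list the *CYP83A1* peak was the lowest of the 3, and its range did not overlap those of the others. The fold enrichment at *FMO GS-OX1* was 2.32 times that at *CYP83A1* in the reproducible list, and 2.26, 1.75 and 3.10 times in the whole-library, longer and shorter pseudoreplicate lists. For *SEL1* the corresponding ratios were 2.30, 2.33, 1.79 and 2.28. *FMO GS-OX1* and *SEL1* could not be ordered. The ratio of *SEL1* to *FMO GS-OX1* was 0.99 in the reproducible list, and 1.03, 1.02 and 0.74 in the whole-library, longer and shorter pseudoreplicate lists, so their order turned between lists, and their difference in mean was smaller than the SD of either.

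The lists differ in the level of all their peaks, and the values were therefore also read against the median of each list, which was 3.04 in the reproducible list and 2.37, 2.53 and 2.63 in the whole-library, longer and shorter pseudoreplicate lists. On this scale *FMO GS-OX1* stood at 2.93, 3.71, 2.79 and 3.64 times the median of these lists in turn. *SEL1* stood at 2.91, 3.82, 2.86 and 2.67 times. *CYP83A1* stood at 1.27, 1.64, 1.60 and 1.17 times, above the median of each list. The highest of the 3 single-library values was 1.35 times the lowest for *FMO GS-OX1*, 1.31 times for *CYP83A1* and 1.29 times for *SEL1*. Over the 1519 reproducible peaks called in each of these lists the median of this ratio was 1.24, with quartiles at 1.14 and 1.35, and the ratio was smaller than that of *SEL1* for 62.3% of them, than that of *CYP83A1* for 68.3% and than that of *FMO GS-OX1* for 75.7%.

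Every single-library list held a call that overlapped each of the 3 peaks by at least 1 bp. The same was so for 62.5% of all reproducible peaks and for 72.4% of those with an annotation row. The calls at the 3 genes were part of how these genes were chosen, and the selection of reproducible peaks drew on the ChCUC1 libraries too. Each list also placed the peaks of *FMO GS-OX1* and *SEL1* at nearly the same position. At *FMO GS-OX1* the summits lay 4, 3 and 2 bp from the reproducible summit in the whole-library, longer and shorter pseudoreplicate lists, and at *SEL1* they lay 2, 1 and 8 bp away. At *CYP83A1* the distances were 1, 18 and 61 bp. The median distance over all reproducible peaks called in these lists was 6, 8 and 12 bp, with upper quartiles of 11, 17 and 23 bp. In the longer pseudoreplicate list, 21.0% of the peaks called were shifted by more than that of *CYP83A1*. The summit at *CYP83A1* in the shorter pseudoreplicate list was the furthest off of the 9, and 6.96% of the peaks called there were shifted by more. In that list the summit lay 47 bp from the start of a call of 263 bp.

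**Figure D2:**
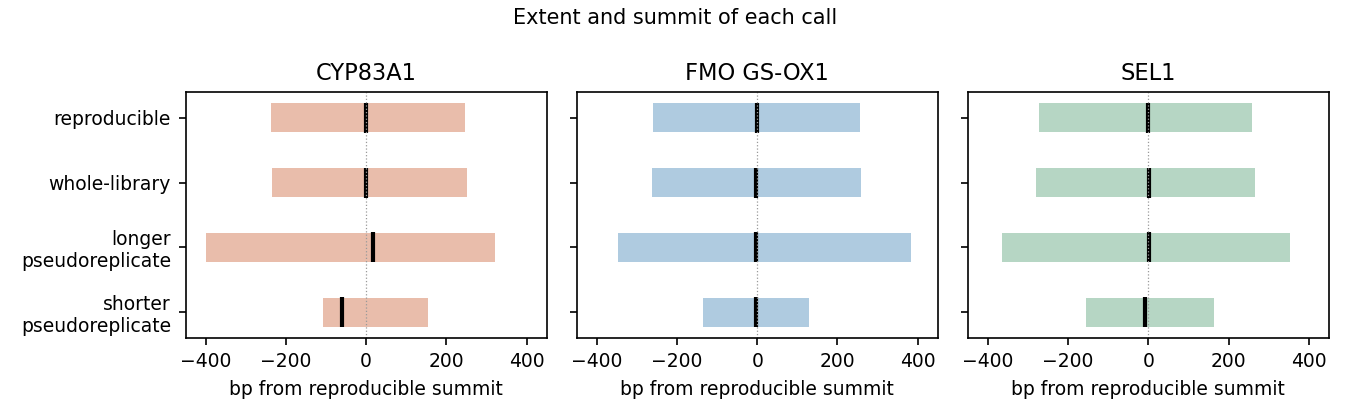
Extent (bars) and summit (black ticks) of the call at each gene in each peak list, in bp from the summit in the reproducible list (x axis). The summits of *FMO GS-OX1* and *SEL1* line up within 8 bp in all lists, and that of *CYP83A1* is displaced by 61 bp in the shorter pseudoreplicate list.

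The calls differed in width by list rather than by gene. The reproducible peaks were 515 bp wide at *FMO GS-OX1*, 531 bp at *SEL1* and 484 bp at *CYP83A1*, near the median of 486.5 bp over all reproducible peaks. In the whole-library list the widths were 521, 544 and 485 bp, where the median was 424 bp. In the longer pseudoreplicate list they were 731, 716 and 721 bp, where the median was 579 bp. In the shorter pseudoreplicate list they were 263, 320 and 263 bp, where the median was 196 bp. These narrow calls still covered 51.1% of the reproducible peak at *FMO GS-OX1*, 60.3% at *SEL1* and 54.3% at *CYP83A1*. All 3 peaks therefore also passed in every list when the call and the peak had to cover 50% of each other, which 14.6% of the reproducible peaks did. In each single-library list the calls at the 3 genes were wider than the median call.

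*SEL1* had a second reproducible peak close by, and *FMO GS-OX1* and *CYP83A1* had none nearer than 18.5 kb. Within 100 kb on each side of the summit there was 1 other reproducible peak around *CYP83A1*, 2 around *FMO GS-OX1* and 6 around *SEL1*. The nearest to *CYP83A1* lay 30.7 kb away at CARHR219630, with a fold enrichment of 2.47. The nearest to *FMO GS-OX1* was that 18.5 kb away at CARHR057760, with 4.80, and on its other side the nearest lay 84.0 kb away at CARHR057660, with 3.06. Over all reproducible peaks the median distance to the nearest other one was 14917 bp.

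The second peak near *SEL1* lay 2031 bp from its summit, on chromosome 2 from 19016707 to 19017192. Its fold enrichment was 2.34 in the reproducible list. The whole-library list gave 2.23, the longer pseudoreplicate list 1.91, and the shorter one had no call. It was thus far below the main *SEL1* peak in each list. No row of the annotation used here names a gene for it. Another reproducible summit within 2500 bp was found for 16.3% of all reproducible peaks. On the other side, the nearest reproducible peak lay 99.1 kb away, with 2.30.

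**Figure D3:**
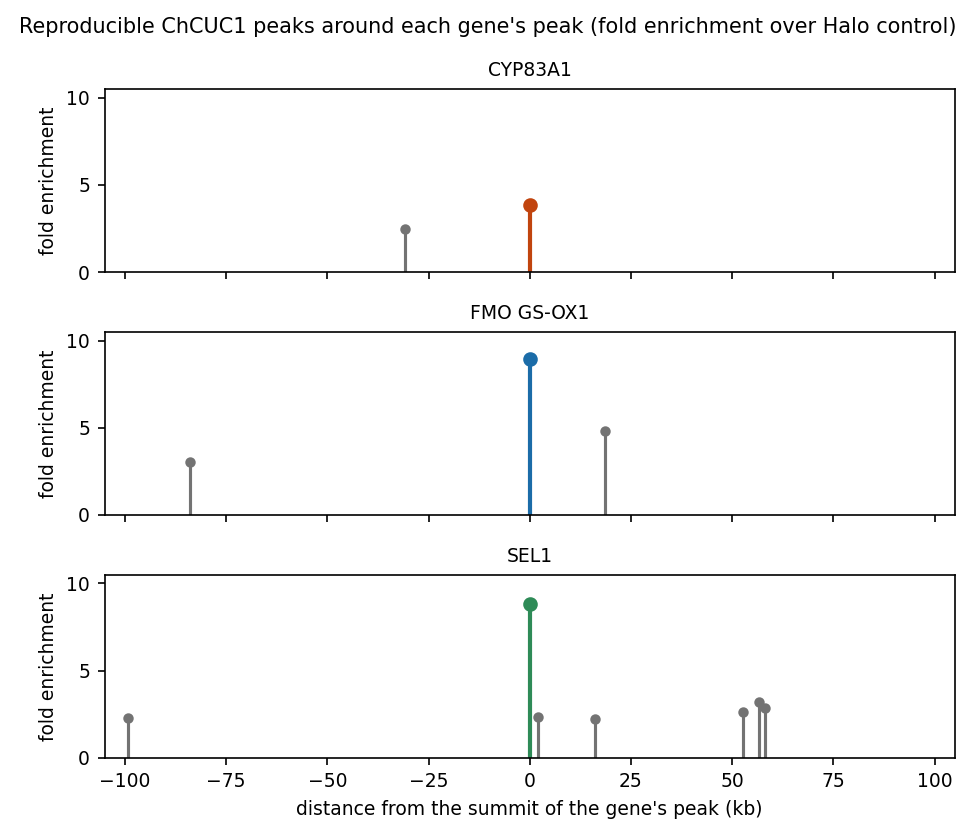
Reproducible peaks within 100 kb of the peak at each gene (x axis, distance between summits in kb) with their fold enrichment over the Halo control (y axis). Coloured stems are the peaks at the 3 genes and grey stems the others, which number 1 around *CYP83A1*, 2 around *FMO GS-OX1* and 6 around *SEL1* and are all lower than the coloured stem of their panel.

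The 3 genes were set beside the rest of their pathways, through 112 *A. thaliana* genes in 8 lists. Of these, 16 had a match with a reproducible peak in the annotated rows, the 3 genes included, with 18 peaks in all. That is 14.3% of the genes listed (95% exact binomial interval 8.39 to 22.2%, counting error only). The lists were written with earlier results of these data known, and the 435 reproducible peaks without an annotation row could not be matched, so the count can be too low. Which of the 112 genes have a *C. hirsuta* match at all was not checked, so the genes without a peak include any that lack a match. The share of all genes with a peak was not computed, since no full gene set of this annotation was used here, and the counts per list below therefore say nothing of enrichment. Of the 15 peaks at the other 13 genes, 12 lay in an exon and 2 in an intron. Of all annotated reproducible peaks, 33.6% lay in an exon and 12.2% in an intron, and the listed genes were not chosen independently of these data. Their fold enrichment ran from 2.51 to 5.66 with a median of 3.24, against 3.28 for all annotated reproducible peaks. *FMO GS-OX1* and *SEL1* stood above this whole range and *CYP83A1* within it.

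Sulfate transport held 3 of 12 genes with a peak, 4 peaks in all. *SULTR1;3* (CARHR022500), which moves sulfate in the phloem in *A. thaliana*, had a peak in an exon at 5.66 and another in an intron at 3.77, with summits 2048 bp apart. The exon peak had 5.68, 5.30 and 6.52 in the whole-library, longer and shorter pseudoreplicate lists. Both values in the reproducible list were below that of its relative *SEL1*. *SULTR2;1* (CARHR203110), a transporter of the vasculature, had an exon peak at 3.03.

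Sulfate assimilation held 3 of 24 genes with a peak. *APK2* (CARHR246760) encodes a kinase that makes the activated sulfate used to sulfate glucosinolates, and it had 2 peaks. The one in an exon stood at 5.54 and hardly varied, with 5.21, 5.23 and 5.30 in the whole-library, longer and shorter pseudoreplicate lists. The one at the transcript end stood at 4.27 and varied more, with 4.60, 3.42 and 2.92. *APR2* (CARHR049950), which encodes a reductase of activated sulfate, had 2.98. The peak assigned to the serine acetyltransferase gene *SERAT1;1* (CARHR270510), at 3.35, lay in an exon of the neighbouring gene CARHR270500.

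Glucosinolate synthesis was marked by single peaks. In the core structure list, 2 of 18 genes had one, *CYP83A1* and its relative *CYP83B1* (CARHR239400), which acts on the aldoximes of indole glucosinolates. The *CYP83B1* peak was in an exon, at 2.66 in the reproducible list and 2.59, 2.89 and 2.72 in the whole-library, longer and shorter pseudoreplicate lists, each below the *CYP83A1* value of the same list. *FMO GS-OX1* was the only gene with a peak of the 15 *A. thaliana* genes listed for side chain modification, which include its 4 relatives *FMO GS-OX2* to *FMO GS-OX5*. Whether these relatives have a match in *C. hirsuta* was not checked. Side chain elongation had 1 of 9, the chloroplast transporter gene *BAT5* (CARHR254200) at 2.52. Of 13 regulators, only *MYB34* (CARHR274570), which encodes an activator of indole glucosinolate genes, was assigned a peak, at 3.24, and that peak lay in an exon of the neighbouring gene CARHR274580.

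Of 18 genes of glucosinolate breakdown, 4 had a peak, with values on both sides of the median of annotated peaks. They were *PEN2* (CARHR139650), an atypical myrosinase gene, at 4.60, the glucosidase gene *BGLU28* (CARHR139620) at 3.72, *ESM1* (CARHR089110) at 2.81 and *NSP4* (CARHR091610) at 2.79. *ESM1* and *NSP4* encode proteins that steer which breakdown products form. Of 3 transporter genes, *GTR3* (CARHR019530) had a peak, at 2.51. How reads that align to several places were treated is not stated in the sources read, so values at close relatives and tandem copies are uncertain to that extent.

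**Figure D4:**
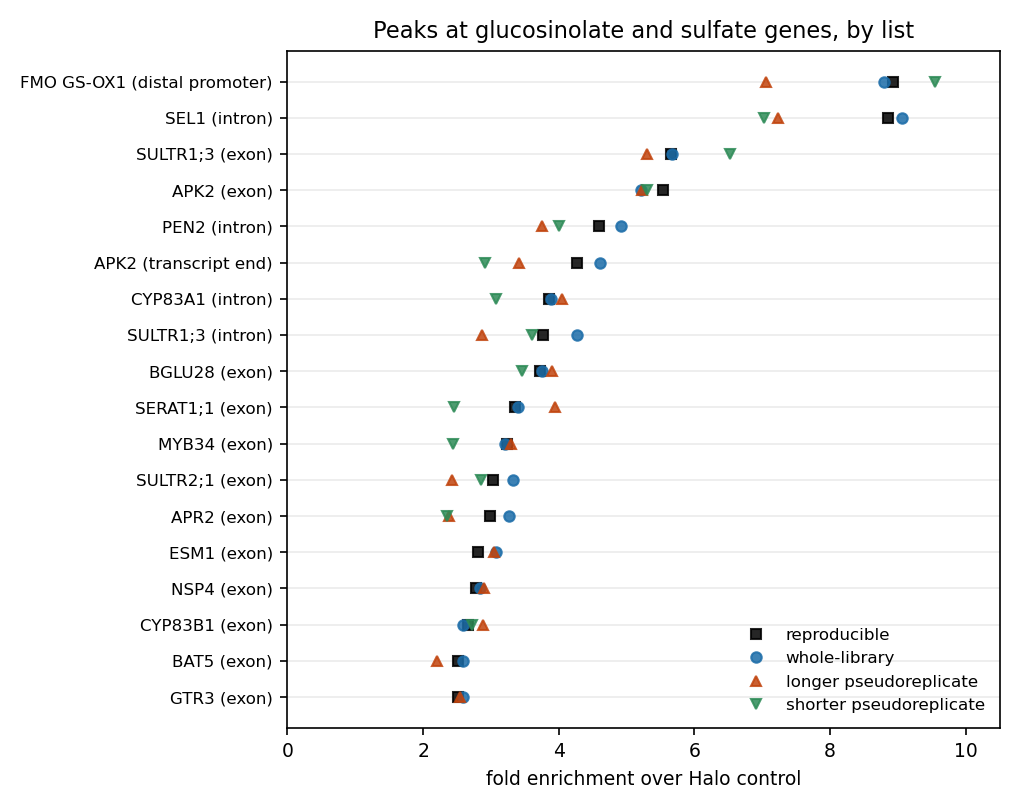
Fold enrichment over the Halo control (x axis) of the 18 reproducible peaks at genes of glucosinolate and sulfate metabolism (y axis, with the annotated location of the peak), in the reproducible list and the 3 single-library lists. *FMO GS-OX1* and *SEL1* lie at 7.02 or more in every list, above all other genes shown, and the last rows lack a point for the shorter pseudoreplicate list where it had no call.

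Of the 15 peaks at the other pathway genes, 11 were called in each of the 3 single-library lists, or 73.3% (95% exact binomial interval 44.9 to 92.2%), against 72.4% of all annotated reproducible peaks. The other 4, at *ESM1*, *NSP4*, *BAT5* and *GTR3*, had no call in the shorter pseudoreplicate list. They ranked 1471, 1502, 1840 and 1852 by fold enrichment, and *CYP83B1*, called in each list, ranked 1670. Of the 18 pathway peaks, those of *CYP83A1*, *FMO GS-OX1* and *SEL1* and the *APK2* exon peak passed in every list when the call and the peak had to cover 50% of each other. Of all reproducible peaks 14.6% did, and the calls at the 3 genes were known when they were chosen.

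**Figure D5:**
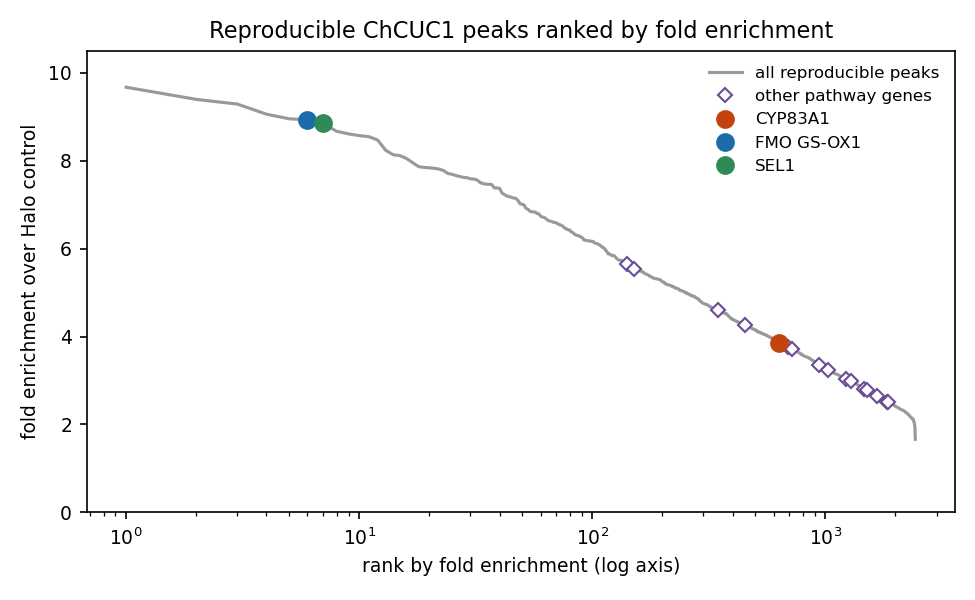
Fold enrichment over the Halo control (y axis) against rank (x axis, log scale) for the 2432 reproducible peaks (line), with the 3 genes as filled points and the other pathway genes as open diamonds. *FMO GS-OX1* and *SEL1* stand at ranks 6 and 7, *CYP83A1* at 632, and the first of the other pathway peaks, at *SULTR1;3*, at 141.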

How the data were processed

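The authors called peaks of ChCUC1 DAP-seq. Bowtie, MACS2 and bedtools are named in the processing notes of the submitters, and no version or genome build is stated in the sources read. Names of the 3 single-library lists state removal of duplicates, the pooled control and a p-value threshold of 0.01. The fold enrichment is a deposited ratio of ChCUC1 over Halo control signal, and the −log10 of the p-value of each peak is deposited as well. The authors' score (in the reproducible list a scaled irreproducible discovery rate) entered no result.

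Peaks were compared by position, at an overlap of at least 1 bp and with the nearest summit where several matched. Python 3.11.15 was used with pandas 2.3.3, NumPy 2.4.6 and, for binomial intervals, SciPy 1.17.1; matplotlib 3.10.9 drew the plots. The comparison of positions was tested on simulated data. Gene names and locations came from the study's Dataset S2, joined to reproducible peaks by start and end, of which 1997 rows were held. No measured value was taken from it. The genes named were the 3 chosen ones, every listed pathway gene with a peak, and the nearest reproducible peaks. The genes and lists were chosen with earlier results of these data known. Alternatives were other definitions of overlap, the top 50% of each list, rank by −log10 p and the omission of single lists.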

Additional observations from a re-analysis of the deposited data

How the results depend on the processing

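The 3 genes' peaks were called in 100% of the single-library lists at an overlap of 50% of both peaks, with summits within 100 bp and in the top 50% of each list. The calls at these genes were part of how they were chosen, and leaving out a list could not change the 100%. Of the 2432 reproducible peaks, 355 passed in each list at that overlap, 1416 with summits within 100 bp and 1154 in the top 50% of each list. Ranked by −log10 p in place of fold enrichment, *FMO GS-OX1* came to rank 13 rather than 6 and *SEL1* to 12 rather than 7, so their order turned, and *CYP83A1* to 707. With each list left out, the mean fold enrichment ran from 7.13 to 8.15 at *SEL1*, the lowest without the whole-library list, from 7.92 to 9.17 at *FMO GS-OX1* and from 3.48 to 3.97 at *CYP83A1*. The 16 pathway genes with a peak came to 12 with peaks called in each list, to 8 among the 50% of annotated peaks with the highest fold enrichment, and to 4 with calls at an overlap of 50%. The 3 chosen genes are among those counted each time. Of all annotated reproducible peaks 72.4% were called in each list, and 14.6% of all reproducible peaks passed at an overlap of 50%. The reproducible peaks called in each list, 1519, came to 355 at that overlap and to between 1525 and 2221 with a list left out. The median call of the shorter pseudoreplicate list was 196 bp wide, against 486.5 bp in the reproducible list. Which list failed the 50% rule was not counted, and the cause was not tested. Of 45 alternative values, 39 stayed within their limits (1.5 times for a count or rank, 1 SD for a fold enrichment). The 39 include the call shares of the 3 genes, whose calls were known when the genes were chosen. No paired analysis was possible, since the single-library lists carry no replicate numbers and each was called against the pooled Halo control. The depth of the libraries is unknown, and whether every listed gene has a *C. hirsuta* match was not checked. The absence of a call at other pathway genes therefore does not show that ChCUC1 does not bind there.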

Other observations

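Weaker calls outside the reproducible list also lay near the 3 genes. At 12.5 kb from the *CYP83A1* summit, toward lower coordinates, the whole-library list had a call with a fold enrichment of 2.46 and the longer pseudoreplicate list one with 1.94. At 15.2 kb from the *FMO GS-OX1* summit, in the same direction, these lists had 1.63 and 2.21. Near *SEL1*, on the same side, a site was called in all 3 single-library lists, at 28.4 kb with 2.11 in the whole-library list, at 28.3 kb with 2.15 in the longer pseudoreplicate list and at 28.6 kb with 2.11 in the shorter one, without being in the reproducible list. In all, within 100 kb on each side, 3 single-library calls around *CYP83A1*, 5 around *FMO GS-OX1* and 9 around *SEL1* overlapped no reproducible peak.

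The peaks of *PEN2* and *BGLU28*, both glucosidase genes, lay 17181 bp apart on chromosome 4, in an intron and an exon.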
